A study of Mus musculus with 4 samples.

Results

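The cluster of miR-322, miR-503, miR-351, miR-542, miR-450a and miR-450b is a group of 7 miRNA hairpins on mouse chromosome X. Its members were taken by name: every deposited entry that is miR-322, miR-503, miR-351, miR-542, miR-450a or miR-450b once the species prefix, the arm mark and the copy number are removed. That rule uses no measured value, but the members were chosen with earlier results of these data known. It found 10 mature miRNAs among the 590 names listed in at least 1 library. All 10 passed the filter on low counts, which kept 442 names. Small RNA had been sequenced from cultured synovial fibroblasts, the mesenchymal cells that line the joint, in order to compare the miRNAs of arthritic joints with those of healthy ones. There were 2 libraries from mice with a human TNF transgene (TghuTNF), which develop arthritis, and 2 from wild-type (WT) littermates. Both genotypes were on a CBA/J * C57BL/6/J background, both were 8 weeks old when hind joints were taken, and both cultures were at passage 4. The labels describe the cultures as more than 80 to 90% positive for CD90.2, a fibroblast surface marker, and less than 1% positive for Mac1, a macrophage marker. The sources used here do not give the promoter of the transgene, the sex of the animals or whether a culture came from 1 animal or several. The design text calls the libraries of a genotype biological replicates. The p-values here rest on the spread of these 4 cultures, with the variance of each miRNA drawn towards that of all miRNAs tested.

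A miRNA is cut from one side of a hairpin in a longer transcript and guides Argonaute proteins to messenger RNAs, which it recognises mainly through its seed, the bases 2 to 8 from its 5′ end. Hairpins that lie close together on one strand are often cut from a single primary transcript. miR-322, the mouse counterpart of human miR-424, and miR-503 are known for repressing cell cycle genes such as Ccnd1, Ccne1 and Cdc25a, and they accumulate when muscle precursors leave the cell cycle. Synovial fibroblasts in arthritic joints are known for growing into a thickened lining that erodes cartilage.

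The 10 mature sequences are shown because the seeds place the members in different targeting families although they come from one locus. They are from RefSeq (GRCm38.p6), are written 5′ to 3′ with the seed in capitals, and run from 21 to 24 nucleotides (nt). In the deposited names a star marks the arm that was thought to be the lesser product, so miR-322 is the 5p arm of its hairpin and miR-322* the 3p arm.
mmu-miR-322: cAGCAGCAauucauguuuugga
mmu-miR-322*: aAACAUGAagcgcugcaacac
mmu-miR-503: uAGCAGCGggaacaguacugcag
mmu-miR-503*: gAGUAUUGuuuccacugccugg
mmu-miR-351: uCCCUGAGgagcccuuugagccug
mmu-miR-542-5p: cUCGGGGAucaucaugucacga
mmu-miR-542-3p: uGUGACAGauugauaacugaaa
mmu-miR-450a-5p: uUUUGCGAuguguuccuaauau
mmu-miR-450b-5p: uUUUGCAGuauguuccugaaua
mmu-miR-450b-3p: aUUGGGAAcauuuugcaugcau

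miR-322 had the seed of miR-15a, miR-15b, miR-16, miR-195 and miR-497, which are made from other loci, and RefSeq listed 9 other mouse mature miRNAs with it. miR-503 kept the first 6 bases of that seed and differed at its last, A8G, counted from the 5′ end of miR-322. miR-351 had the seed of miR-125a-5p and miR-125b-5p. miR-450a-5p and miR-450b-5p shared the first 5 seed bases and differed next at G7A, counted from the 5′ end of miR-450a-5p. miR-322*, miR-503, miR-503*, miR-542-3p, miR-450a-5p and miR-450b-5p each had a seed found in 0 other mature miRNAs of the table.

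The hairpins lie on the minus strand of chromosome X within chrX:53047997-53054349 (GRCm38.p6), a span of 6353 nt. In the direction of transcription Mir322 comes first (53054255 to 53054349), then Mir503 (53053984 to 53054054) and Mir351 (53053255 to 53053353). After a gap of 3767 nt, wider than the other gaps of 54 to 1035 nt, follow Mir542 (53049403 to 53049487), Mir450-2 (53048299 to 53048367), Mir450-1 (53048154 to 53048244) and Mir450b (53047997 to 53048078). miR-450a-5p can come from both Mir450-1 and Mir450-2, whose 5p arms are identical. RefSeq has a long noncoding RNA gene, C430049B03Rik, at 53053112 to 53057190, whose span holds 3 of the 7 hairpins, Mir322, Mir503 and Mir351. The GENCODE annotation ends that gene at 53055046, upstream of every hairpin. It has a separate long noncoding RNA gene on the same strand, Gm28730, at 53051194 to 53053159, between Mir351 and Mir542. Whether all 7 hairpins are cut from one transcript was not tested.

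Both arms were counted for 4 of the hairpins, and those are shown because the comparison of arms below rests on them. The RefSeq hairpin is written 5′ to 3′ with its mature arms in capitals, the 5p arm first.
Mir322: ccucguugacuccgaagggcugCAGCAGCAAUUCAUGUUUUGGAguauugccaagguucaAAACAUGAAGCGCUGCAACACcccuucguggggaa
Mir503: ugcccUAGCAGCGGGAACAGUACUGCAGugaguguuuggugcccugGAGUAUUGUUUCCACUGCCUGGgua
Mir542: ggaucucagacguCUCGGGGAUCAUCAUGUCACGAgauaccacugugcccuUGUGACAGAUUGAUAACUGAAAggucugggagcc
Mir450b: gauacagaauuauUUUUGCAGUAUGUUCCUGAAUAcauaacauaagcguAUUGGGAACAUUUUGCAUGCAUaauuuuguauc

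The libraries held 16680860 (WT replicate 1), 26542371 (WT replicate 2), 27362819 (TghuTNF replicate 1) and 22959408 (TghuTNF replicate 2) matches to miRNAs, so that a count of 0 allows up to 0.110 to 0.180 CPM (counts scaled to a library of 1000000 matches). Reads carried no molecular identifiers, and intervals and floors cover counting error only. The libraries of a genotype differed by far more than counting error, with a chi-square of 553 (WT) and 554 (TghuTNF) for each degree of freedom, so no library was a copy of another. TghuTNF replicate 2 stood apart in matches with 2 mismatches, 11.7% of its matches against 8.21 to 8.73% in the other libraries, and results are therefore also given without it.

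The whole cluster was lower in TghuTNF fibroblasts. It took 2759, 4638, 1595 and 868 matches in WT replicates 1 and 2 and TghuTNF replicates 1 and 2. As shares of all matches these were 0.0165% (exact 95% binomial interval 0.0159 to 0.0172%), 0.0175% (0.0170 to 0.0180%), 0.00583% (0.00555 to 0.00612%) and 0.00378% (0.00353 to 0.00404%). The cluster is thus a small part of the miRNA pool in every library, and its 2 TghuTNF values lie below both WT values. Scaled with TMM (edgeR's correction for differences in composition), the summed level was 169 ± 1.73 CPM in WT and 48.2 ± 13.6 CPM in TghuTNF (SD, n = 2 each), a ratio of 3.51. Such bulk values cannot tell apart fewer cells that make the cluster and less of it in each cell.

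Of the 10 arms, 8 passed edgeR's quasi-likelihood test as lower in TghuTNF (Benjamini-Hochberg adjusted over all 442 miRNAs, threshold 0.05), 0 as higher, and 2, miR-450b-5p and miR-450b-3p, did not pass. Over all miRNAs tested 8.6% were called lower and 13.3% in either direction. All 10 arms had an unadjusted p under 0.05 in the lower direction, against 17.2% of all miRNAs. In all 10 arms both TghuTNF libraries lay below both WT libraries, which held for 29.9% of all miRNAs. Of these arms miR-450b-5p met the filter on low counts through its WT libraries alone, with 0.402 and 0.305 CPM before TMM in TghuTNF. Its lower level in TghuTNF is thus not independent of the filter, and it is part of each count of 10 and of the median. The median log2 fold change of the arms was -1.79 (-2.44 to -1.36), and that of all tested miRNAs was 0.0056. Among the 432 miRNAs outside the cluster, 16 had a log2 fold change as low as the smallest of the 10 or lower.

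**Figure D1:**
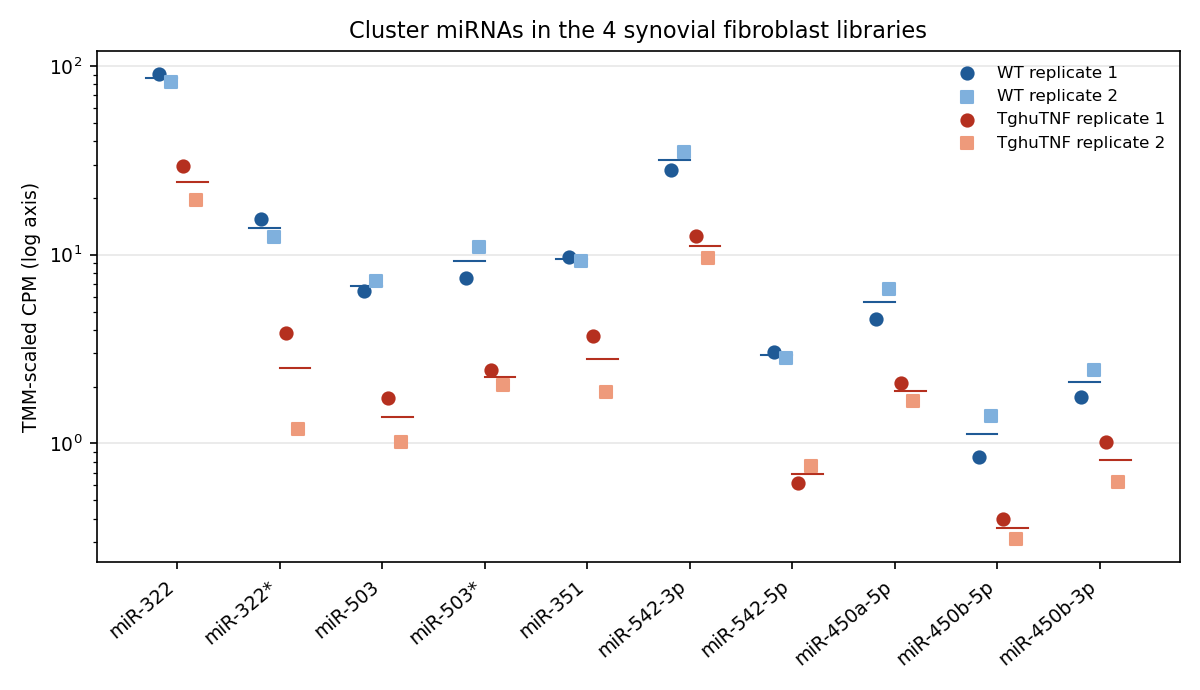
Level of each cluster miRNA in each library (TMM-scaled CPM, log axis), with circles for replicate 1, squares for replicate 2 and a line at the mean of each genotype (n = 2). For all 10 miRNAs both TghuTNF points sit below both WT points.

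miR-322, the most counted arm of the cluster and the one that carries the miR-15/16 seed printed above, stood at 90.6 and 82.1 CPM in WT replicates 1 and 2 and at 29.3 and 19.4 CPM in TghuTNF replicates 1 and 2. The WT libraries lay close together and well above both TghuTNF libraries. It was 3.54-fold lower, a log2 fold change of -1.82 ± 0.26 (SE; edgeR adjusted p = 0.0010). Its partner miR-322* stood at 15.4 and 12.4 CPM in WT and at 3.84 and 1.20 CPM in TghuTNF. The groups did not overlap, and the second TghuTNF library, with 27 matches, was far below the first, with 106. miR-322* was 5.43-fold lower, with a log2 fold change of -2.44 ± 0.45 (SE; edgeR adjusted p = 0.0036), the largest drop in the cluster. Its size rests on 1 library: it was -3.60 without TghuTNF replicate 1 and -1.88 without TghuTNF replicate 2, each time with the remaining TghuTNF library assumed to vary like the WT pair.

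miR-503, which has nearly the seed of miR-322 and is likewise known as a repressor of cell cycle genes, stood at 6.45 and 7.27 CPM in WT and at 1.74 and 1.02 CPM in TghuTNF. Both TghuTNF libraries were low, replicate 2 the lower. It was 4.92-fold lower (log2 fold change -2.30 ± 0.35, SE; edgeR adjusted p = 0.0016). miR-503*, cut from the other side of the same hairpin, stood at 7.49 and 11.0 CPM in WT and at 2.46 and 2.04 CPM in TghuTNF. The WT libraries differed more from each other than the TghuTNF libraries did, and the groups did not overlap. It was 4.10-fold lower (log2 fold change -2.04 ± 0.32, SE; edgeR adjusted p = 0.0019). miR-351, with the miR-125 seed, stood at 9.74 and 9.26 CPM in WT and at 3.73 and 1.86 CPM in TghuTNF. Its WT values were nearly equal, and the first TghuTNF library was well above the second. It was 3.37-fold lower (log2 fold change -1.75 ± 0.35, SE; edgeR adjusted p = 0.0064).

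miR-542-3p, known for repressing the gene of the anti-apoptotic protein survivin, stood at 28.0 and 35.1 CPM in WT and at 12.5 and 9.59 CPM in TghuTNF. The groups were far apart next to the distance within each. It was 2.85-fold lower (log2 fold change -1.51 ± 0.26, SE; edgeR adjusted p = 0.0027). miR-542-5p, its minor partner arm, stood at 3.04 and 2.83 CPM in WT and at 0.616 and 0.755 CPM in TghuTNF. Here, unlike in the other 9 arms, the lower of the TghuTNF libraries was replicate 1, at 17 matches in each. It was 4.27-fold lower (log2 fold change -2.09 ± 0.38, SE; edgeR adjusted p = 0.0034).

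miR-450a-5p stood at 4.56 and 6.61 CPM in WT and at 2.10 and 1.69 CPM in TghuTNF. The groups did not overlap, although the WT libraries were well apart. It was 2.95-fold lower (log2 fold change -1.56 ± 0.34, SE; edgeR adjusted p = 0.0097), and without WT replicate 2 it did not pass, at -1.27 (adjusted p = 0.21). miR-450b-5p was the rarest arm, with 14, 38, 11 and 7 matches or 0.852 and 1.40 CPM in WT and 0.398 and 0.311 CPM in TghuTNF. Its TghuTNF values are few counts above the floor. Its log2 fold change of -1.67 ± 0.52 (SE) did not pass (edgeR adjusted p = 0.058). miR-450b-3p stood at 1.76 and 2.46 CPM in WT and at 1.01 and 0.622 CPM in TghuTNF, again without overlap. Its log2 fold change of -1.36 ± 0.42 (SE) did not pass (edgeR adjusted p = 0.055). Both miR-450b arms passed in the fits without the filter on low counts (adjusted p = 0.033 and 0.020), without TghuTNF replicate 1 (0.0077 and 0.00073) and without TghuTNF replicate 2 (0.033 and 0.048). They did not pass without WT replicate 1 (0.16 and 0.18), without WT replicate 2 (0.62 and 0.55) or with DESeq2 (0.17 and 0.12).

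Since the second TghuTNF library was the lower one in 9 of 10 arms, the drop was also followed library by library. Measured from the WT mean, the median over the 10 arms was -1.48 on the log2 scale in TghuTNF replicate 1 and -2.03 in TghuTNF replicate 2. The same median over all tested miRNAs was 0.029 and -0.031. Without TghuTNF replicate 2 the median log2 fold change of the arms was -1.57 and without TghuTNF replicate 1 it was -2.13, and all 10 arms passed in each of these fits. The library with the higher share of 2-mismatch matches was thus also the one with the larger drop, and the part of that share in the result was not tested. Counting perfect matches alone, 9 of 10 arms were called lower, against 8.16% of the 380 miRNAs tested that way, and all 10 had both TghuTNF libraries below both WT libraries, against 32.9%. There too miR-450b-5p met the filter through its WT libraries alone.

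The order of the arms by level was led by miR-322 at 86.3 ± 6.06 CPM in WT (SD, n = 2), followed by miR-542-3p at 31.6 ± 5.03 and miR-322* at 13.9 ± 2.14. Next came miR-351 at 9.50 ± 0.34 and miR-503* at 9.23 ± 2.47, whose libraries overlapped, and miR-503 at 6.86 ± 0.58 and miR-450a-5p at 5.59 ± 1.45, which overlapped as well. miR-542-5p (2.94 ± 0.15), miR-450b-3p (2.11 ± 0.49) and miR-450b-5p (1.12 ± 0.38) were the rarest and did not overlap. In TghuTNF the same 2 arms led, miR-322 at 24.4 ± 7.0 CPM and miR-542-3p at 11.1 ± 2.08. Behind them miR-351 (2.80 ± 1.32), miR-322* (2.52 ± 1.87), miR-503* (2.25 ± 0.30), miR-450a-5p (1.89 ± 0.29) and miR-503 (1.38 ± 0.51) formed a group in which each arm overlapped the next. Below them came miR-450b-3p (0.818 ± 0.28), which lay just under miR-503 without overlap, miR-542-5p (0.685 ± 0.098), which overlapped miR-450b-3p, and miR-450b-5p (0.355 ± 0.062), which overlapped none. Matches are not corrected for how readily each sequence is ligated, so this is an order of counts, not of molecules.

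Along the locus, in the direction of transcription, the fold changes were uneven within a narrow range. The 5 arms of the upstream hairpins Mir322, Mir503 and Mir351 had log2 fold changes of -2.44 to -1.75 with a median of -2.04. The 5 arms of the downstream hairpins Mir542, Mir450-1 or Mir450-2 and Mir450b had -2.09 to -1.36 with a median of -1.56. These ranges overlap, miR-542-5p being the downstream arm within the upstream range, and the split is a description without a test. Summed per hairpin, the ratio of the WT to the TghuTNF mean was 3.72 for Mir322, 4.43 for Mir503 and 3.39 for Mir351. It was 2.94 for Mir542, 2.95 for miR-450a-5p and 2.76 for Mir450b.

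**Figure D2:**
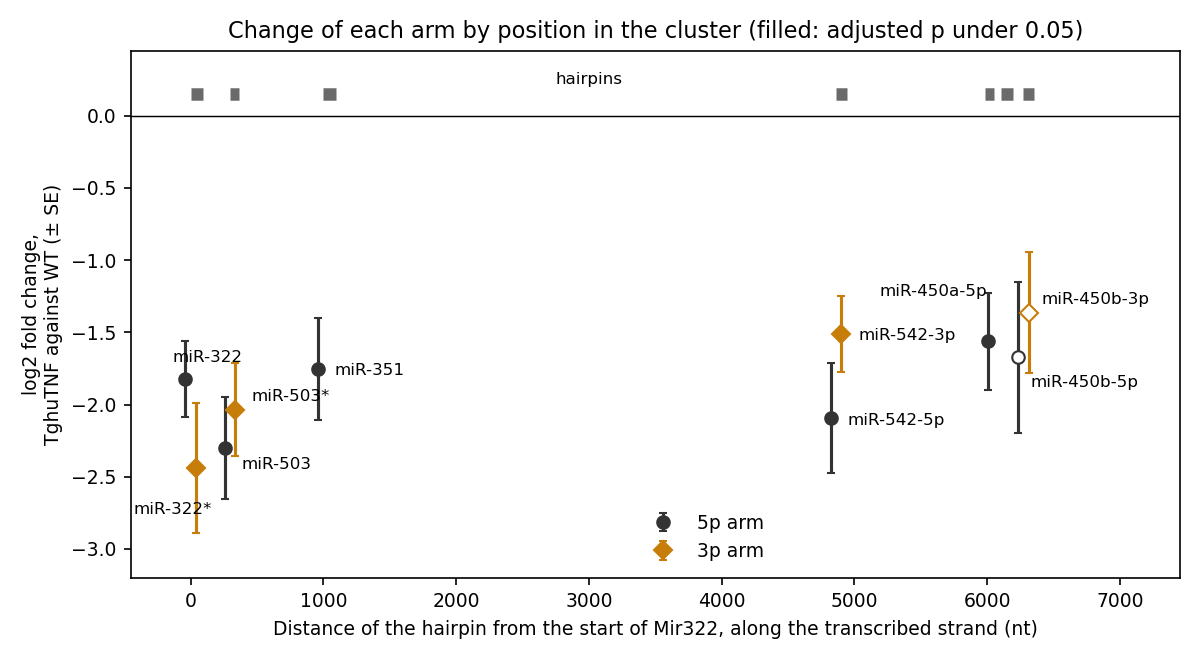
log2 fold change of each arm (TghuTNF against WT, bars ± SE, n = 2 per genotype) against the distance of its hairpin from the start of Mir322 along the transcribed strand, in nt. The arms of one hairpin are drawn to either side of it, grey blocks mark the hairpins, and filled symbols have an edgeR adjusted p under 0.05; every point lies between -2.44 and -1.36.

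Whether any arm changed by another amount than miR-322 was asked through its ratio to miR-322 within each library. The difference between genotypes in this log2 ratio ran from -0.82 ± 0.47 (SE) for miR-322* through -0.49 for miR-503, -0.22 for miR-542-5p, -0.15 for miR-503* and 0.012 for miR-351 to 0.48 for miR-450b-3p. limma called 0 of these 9 arms, and 0 had an unadjusted p under 0.05. The limma p-values of such ratios are unreliable, because every ratio contains the same 4 values of miR-322. All ratios were given the same SE of 0.47. That SE was above the SDs of the miR-503 ratio (0.22 in WT, 0.12 in TghuTNF) and below that of miR-322* in TghuTNF (0.76). The p-values may thus be too small for some miRNAs and too large for some arms, and 0 calls do not show an equal change. The test passed 90.7% of the 441 miRNAs. miR-322* passed it when perfect matches alone were counted (-1.14, limma adjusted p = 0.021) and without TghuTNF replicate 1 (-1.35, limma adjusted p = 0.0025), but was at -0.29 without TghuTNF replicate 2. With 2 libraries per genotype an exact permutation test of 1 such ratio cannot give a p below 0.333.

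As shares of the cluster's own matches, miR-322 held 54.0 and 48.2% in WT and 50.8 and 50.5% in TghuTNF. Its share in TghuTNF lay inside the range of the WT libraries. miR-542-3p held 16.7 and 20.6% in WT and 21.7 and 24.9% in TghuTNF, higher in both TghuTNF libraries. miR-322* held 9.17 and 7.27% in WT and 6.65 and 3.11% in TghuTNF, and miR-503 held 3.84 and 4.27% in WT and 3.01 and 2.65% in TghuTNF, both lower in TghuTNF without overlap. miR-450b-3p, with 1.05 and 1.44% in WT and 1.76 and 1.61% in TghuTNF, was higher without overlap. The shares of the other 5 arms overlapped between the genotypes.

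The paired arms of the 4 hairpins printed above were compared within each library, where library size cancels. There were 5.89 and 6.63 matches to miR-322 per match to miR-322* in WT and 7.64 and 16.2 in TghuTNF. Both TghuTNF ratios were above both WT ratios, the second by far, on 27 matches to miR-322*. The difference on the log2 scale was 0.82 ± 0.38 (SE) and did not pass (limma adjusted p = 0.67, two-sided). For miR-503 per miR-503* the ratios were 0.862 and 0.662 in WT and 0.706 and 0.50 in TghuTNF, so that the star arm was the more counted one in all 4 libraries. These overlapped between the genotypes (difference -0.34 ± 0.30, SE; limma adjusted p = 0.82). miR-542-3p outnumbered miR-542-5p by 9.20 and 12.4 in WT and by 20.4 and 12.7 in TghuTNF. TghuTNF replicate 1 was high and replicate 2 only just above WT replicate 2 (difference of 5p to 3p -0.56 ± 0.33, SE; limma adjusted p = 0.72). miR-450b-5p had 0.483 and 0.567 matches per match to miR-450b-3p in WT and 0.393 and 0.50 in TghuTNF, which overlapped (difference -0.21 ± 0.27, SE; limma adjusted p = 0.87). limma called 0 of 106 hairpins in this comparison, 0% of those tested, and 6 had an unadjusted p under 0.05, none of them in the cluster.

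**Figure D3:**
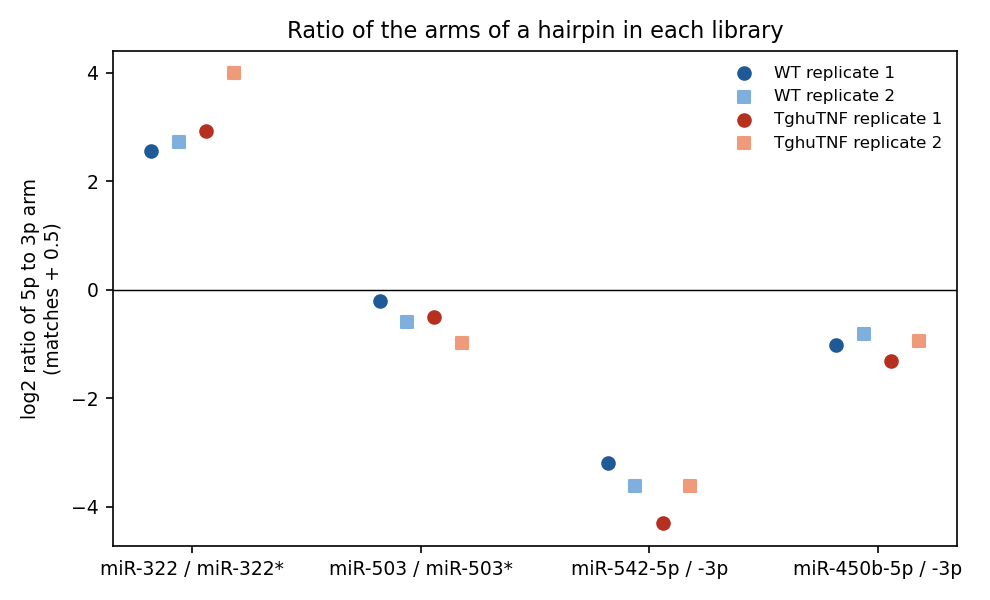
log2 ratio of the 5p to the 3p arm (matches + 0.5) in each library for the 4 hairpins of the cluster with both arms counted; each point is 1 library. Above 0 the 5p arm is the more counted one: this holds for miR-322 alone, and TghuTNF replicate 2 lies highest there.

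The deposited files split each count into matches with 0, 1 and 2 mismatches to the sequences the authors matched against. The release of those sequences is not given, and they were not compared with the printed ones. miR-503 (94.4% perfect over the 4 libraries), miR-503* (94.2%), miR-542-5p (94.4%), miR-450b-5p (94.3%), miR-450a-5p (89.2%) and miR-322 (87.9%) were mostly perfect. miR-322* was not: 30.2% of its matches were perfect and 67.9% had 1 mismatch. Its perfect share was 34.8 and 29.1% in WT and 23.6 and 25.9% in TghuTNF, lower in both TghuTNF libraries. miR-351 had 62.8% perfect matches and 23.0% with 2 mismatches, and miR-542-3p and miR-450b-3p had 26.4 and 24.6% with 1 mismatch. miR-450b-3p is the only arm with another RefSeq mature miRNA, miR-450a-1-3p of the neighbouring hairpin Mir450-1, within 2 differences. The other 9 were 6 to 10 differences from their nearest sequence in the RefSeq table, more than the 2 mismatches the authors allowed.

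The odds of a perfect match could be compared between genotypes for the 4 arms with enough matches of both kinds. The log2 difference was -0.47 ± 0.27 for miR-322* (limma adjusted p = 0.79), -0.088 ± 0.25 for miR-351, 0.025 ± 0.32 for miR-542-3p and -0.0080 ± 0.25 for miR-322 (SE), and none passed. limma called 0 of 328 miRNAs, 0%, and 17 had an unadjusted p under 0.05. Counting perfect matches alone, miR-322* was at 7.64 and 5.25 CPM in WT and 1.28 and 0.462 CPM in TghuTNF, a log2 fold change of -2.82 ± 0.47 (SE; edgeR adjusted p = 0.0044). That is a larger drop than over all of its matches, and the groups did not overlap.

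**Figure D4:**
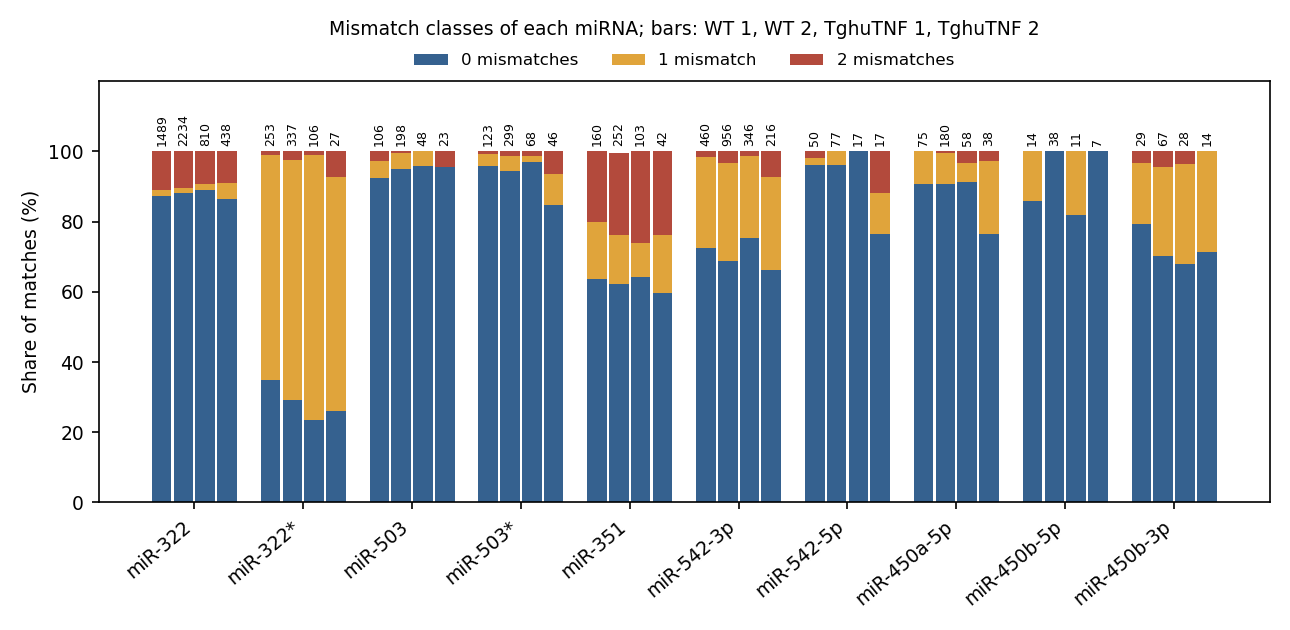
Share of each miRNA's matches with 0, 1 and 2 mismatches, 1 bar per library in the order WT 1, WT 2, TghuTNF 1, TghuTNF 2, with the number of matches above each bar. miR-322* is mostly counted through 1-mismatch matches in every library (67.9% overall), and miR-351 has the largest 2-mismatch share (23.0%).

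The miRNAs that share a seed with miR-322 but are made elsewhere did not show a change of that size. All 5 had been measured, and edgeR called 0 of them, against 59 of all 442 miRNAs tested. An unadjusted p under 0.05 was found for 3 of the 5, against 128 of the 442. The log2 fold change was negative in all 5, against 218 of the 442. Both TghuTNF libraries lay below both WT libraries for 3 of the 5, miR-16, miR-195 and miR-15b, against 132 of the 442. Their median log2 fold change was -0.53. miR-16, the best known member of the family and a repressor of cyclins, stood at 547 and 354 CPM in WT and 283 and 341 CPM in TghuTNF (log2 fold change -0.53 ± 0.23, SE; edgeR adjusted p = 0.17). WT replicate 1 was high and the other 3 libraries were close together: without it the log2 fold change was -0.18, without WT replicate 2 it was -0.81, and without TghuTNF replicate 2 it was -0.69 and passed (edgeR adjusted p = 0.044). miR-195 was at -0.67 ± 0.24 (edgeR adjusted p = 0.099), miR-497 at -0.29 ± 0.24 and miR-15a at -0.050 ± 0.21, while miR-15b, given here after its value was seen, was at -0.84 ± 0.33 (edgeR adjusted p = 0.12). miR-195 and miR-15b passed edgeR in some other fits, among them those without WT replicate 2 (-0.97 and -1.18) and without TghuTNF replicate 2 (-0.89 and -1.33). Without WT replicate 1 they were at -0.31 and -0.42 (edgeR adjusted p = 0.69 and 0.67), and without TghuTNF replicate 1 at -0.58 and -0.56, and did not pass. In WT replicate 1, 7429 of the 9256 matches to miR-195 had 2 mismatches, beside 6706 perfect matches to miR-16. The same reads may be counted under both names, so these values are not independent.

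The log2 ratio to miR-322 in the same library was higher in TghuTNF by 1.79 for miR-15a, 1.56 for miR-497, 1.35 for miR-16 and 1.20 for miR-195. Each had an SE of 0.47, with no overlap between the genotypes. Since miR-322 fell (log2 fold change -1.82), such a ratio also rises for a miRNA that did not change, and 90.7% of the 441 miRNAs passed. The ratio of miR-15b was higher by 1.00, and its libraries overlapped. Within the matches of this seed family, perfect ones only, miR-322 took 9.02% of WT replicate 1 (8.56 to 9.50%, exact binomial 95% limits) and 10.3% of WT replicate 2 (9.90 to 10.8%). It took 5.55% in TghuTNF replicate 1 (5.16 to 5.96%) and 2.86% in TghuTNF replicate 2 (2.59 to 3.16%). The miR-322 share of the family's seed was thus lower in both TghuTNF libraries, and most of the family's matches came from its other members in all 4.

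For the seed of miR-351 the difference in abundance was larger. miR-125b-5p stood at 29489 and 33843 CPM in WT and 41692 and 36959 CPM in TghuTNF (log2 fold change 0.31 ± 0.15, SE; edgeR adjusted p = 0.20), higher in both TghuTNF libraries but not called. miR-125a-5p was at -0.16 ± 0.19 (edgeR adjusted p = 0.62). miR-351 made up 0.0246 and 0.0217% of the matches to these 3 miRNAs in WT and 0.00722 and 0.00425% in TghuTNF. The log2 ratio to miR-351 in the same library was higher in TghuTNF by 2.15 ± 0.61 for miR-125b-5p and 1.65 ± 0.61 for miR-125a-5p (SE), both without overlap. Since miR-351 fell (log2 fold change -1.75), this ratio too rises for a miRNA that did not change. The limma test behind these SEs shares the reference miRNA as above and passed 83.4% of the 441 miRNAs.

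Other lists show what else moved with the cluster. Of 53 other X-linked names, 28 were tested, 3 were called higher, 3 lower, 22 did not pass, and their median log2 fold change was 0.039. Of all 442 miRNAs tested, 21 were called higher and 38 lower, and 128 had an unadjusted p under 0.05. miR-222 and its neighbour miR-221, known for repressing the cell cycle inhibitor p27, rose. miR-222 stood at 217 and 236 CPM in WT and 768 and 850.4 CPM in TghuTNF (log2 fold change 1.84 ± 0.19, SE; edgeR adjusted p = 0.00011), and miR-221 had a log2 fold change of 2.02 ± 0.28 (edgeR adjusted p = 0.00082). Both TghuTNF libraries were high for each. miR-676 fell by 1.07 on the log2 scale, from 396 and 447 CPM in WT to 201 and 201 CPM in TghuTNF (edgeR adjusted p = 0.0029). miR-223, a myeloid cell miRNA that is X-linked too, stood at 0.609 and 0.294 CPM in WT and 3.26 and 2.40 CPM in TghuTNF (log2 fold change 2.72 ± 0.47, SE; edgeR adjusted p = 0.0026). In the miR-17-92 cluster and its paralogs, which promote the cell cycle, edgeR called 0 of the 11 tested, 1 had an unadjusted p under 0.05, and the median was -0.34. The log2 fold change was negative in 10 of the 11, against 218 of all 442. Both TghuTNF libraries lay below both WT libraries in 8 of the 11, against 132 of all 442.

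**Figure D5:**
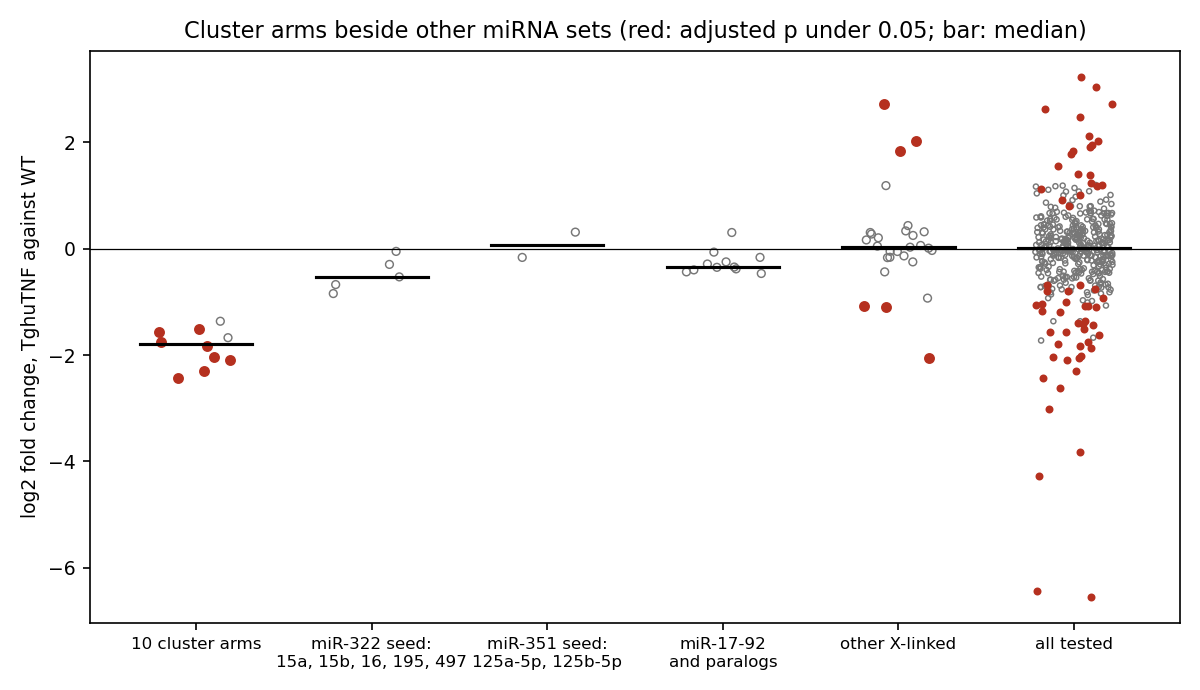
log2 fold change (TghuTNF against WT) of the 10 cluster arms beside the seed relatives of miR-322 and miR-351, the miR-17-92 group, the other X-linked miRNAs and all 442 tested miRNAs; each point is 1 miRNA, red points have an edgeR adjusted p under 0.05 and bars are medians. The cluster's median of -1.79 lies below those of the other sets, which run from -0.53 to 0.075.

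Markers of other cells that joint cultures can hold were counted beside the cluster, as summed CPM without TMM. Of all 442 miRNAs tested, 21 were called higher and 38 lower, and 128 had an unadjusted p under 0.05. Both TghuTNF libraries lay above both WT libraries in 136 of the 442 and below them in 132. The fibroblast list (6 of 6 tested, 1 lower, miR-214) summed to 277353 and 301907 in WT and 286109.5 and 298966 in TghuTNF. Most of it is miR-21 and miR-143, so it shows little of miR-214, which had a log2 fold change of -0.93 (edgeR adjusted p = 0.037). The muscle list (5 of 5 tested, 0 called, all 5 with an unadjusted p under 0.05) summed to 2390 and 3086 in WT and 2074 and 1750 in TghuTNF. That sum is mostly miR-206 and miR-1, and miR-499 went the other way, with a log2 fold change of 1.20 and both TghuTNF libraries above both WT libraries. The endothelial list of both miR-126 arms (1 of 2 lower) summed to 124.8 and 110.4 in WT and 69.4 and 65.4 in TghuTNF. The blood cell list (3 of 5 tested, 1 higher, miR-223) summed to 15.8 and 6.56 in WT and 29.1 and 21.2 in TghuTNF. The cartilage list (4 of 4 tested, 2 higher, 2 lower) summed to 12130 and 13445 in WT and 18691 and 25546 in TghuTNF. That sum is mostly miR-140*, which rose with miR-140 (log2 fold changes 0.81 and 0.91), while miR-455 (-1.88) and miR-455* (-1.17) fell. The epithelial list (4 of 7 tested, 1 lower, miR-203) summed to 66.7 and 72.7 in WT and 37.1 and 30.1 in TghuTNF, and the neural list (2 of 3 tested, 0 called, 0 with an unadjusted p under 0.05) to 24.1 and 35.6 in WT and 25.9 and 23.2 in TghuTNF. The epithelial sum is mostly miR-203: the other 3 tested, miR-200b (log2 fold change 0.44), miR-200c (0.30) and miR-141 (0.46), had both TghuTNF libraries above both WT libraries, and the median of the list was 0.37. No marker was at 0 in all 4 libraries. The summed levels of the muscle and endothelial lists were lower in both TghuTNF libraries, as the cluster was. So were miR-203, miR-455, miR-455* and the fibroblast markers miR-214 and miR-199a-3p. Their part in the drop of the cluster was not tested.

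The miRNAs outside the cluster with the profile most like its mean were found by distance between log2 CPM profiles over the 4 libraries, each centred on its own mean. The 5 nearest were miR-203 (distance 0.47), miR-146b* (0.58), miR-455 (0.61), miR-466f-5p (0.65) and miR-1957 (0.68). The cluster's own arms lay between 0.25 (miR-322) and 1.17 (miR-322*), but they are part of that mean, which shortens their distances. The 5 were picked for a profile like that of the cluster, so their lower levels in TghuTNF follow from the choice. miR-203, known from skin, stood at 59.0 and 62.4 CPM in WT and 25.2 and 19.8 CPM in TghuTNF, low in both TghuTNF libraries. The log2 fold changes were -1.43 for miR-203, -2.01 for miR-146b*, -1.88 for miR-455, -1.62 for miR-466f-5p and -1.36 for miR-1957. All but miR-1957 passed edgeR. miR-455 is a cartilage miRNA, but miR-140 and miR-140*, from the same list, were called higher. The share of perfect matches was 85.2% for miR-146b*, 58.9% for miR-455 and 37.4% for miR-203. It was 12.7% for miR-1957 and 0.48% for miR-466f-5p, and miR-466f-5p did not pass in 4 of 12 other fits.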

How the data were processed

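Small RNA fractions of 20 to 30 and 70 to 100 nt were cut from gels and sequenced, per the labels' protocols, in 2 WT and 2 TghuTNF cultures. The deposited values are raw counts of reads matched to each of 707 mature miRNAs by mimap version 3d, per the file headers, with a read length of 37 bases, a hash length of 9 and no more than 2 mismatches. The authors also split each count by mismatches (0, 1 or 2), and 0.0112 to 0.0149% of matches were in no such class. The sources used here give neither the miRBase release nor the adaptor trimming nor how a read matching more than 1 miRNA was assigned, and near-identical miRNAs may share reads.

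Counts were filtered with filterByExpr (442 of 590 names kept), scaled with TMM and tested in edgeR 4.0.16 (R 4.3.3) by quasi-likelihood, fitted to the 4 libraries by genotype without covariates, two-sided, with Benjamini-Hochberg adjusted p-values under 0.05 called. Printed CPM carry the TMM scaling, with SD (n = 2). Arm ratios (106 hairpins), odds of a perfect match (328 miRNAs with a mean of at least 10 matches of each kind) and ratios to miR-322 and miR-351 were log2 values with a pseudocount of 0.5, tested with limma 3.58.1. Sequences and coordinates are from RefSeq (GRCm38.p6), which matched 463 of 590 names.

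The members and lists were chosen with earlier results of these data known. Named are the 10 members, up to 4 miRNAs per list, first the called ones in order of p and then those with most matches, and the 5 nearest profiles. Replicate numbers are in the labels, but the correlation of same-numbered libraries' deviations was -0.11 over 442 miRNAs (0.44 over the 10 members), so the numbers were not taken to pair the libraries. Alternatives were DESeq2 1.42.0, library size only, upper quartile factors, other filters and pseudocounts, other mismatch classes, limma-voom, a replicate block and leaving out each library.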

Additional observations from a re-analysis of the deposited data

How the results depend on the processing

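All 10 arms kept a negative log2 fold change in every fit that tested them, and among 132 alternative values of single arms 9 (all of miR-450b arms) newly passed, 1 (miR-450a-5p without WT replicate 2) no longer passed, 0 reversed and the rest kept their side of the threshold. Leaving out each library moved the number of arms called lower between 7 and 10. A mean CPM of at least 10 left 2 arms to test, both negative and both called. The count of all called miRNAs, 59, was 93 without a filter, 20 with that minimum and 49 to 153 with 1 library left out. Those called lower, 38, were 11 with that minimum and 29 to 92 with 1 library left out, and those called higher, 21, were 39 without a filter, 9 with the minimum and 17 to 61 with 1 library left out. The highest of these counts came without TghuTNF replicate 1. Fewer names enter under the minimum, and the other causes were not tested.

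With the replicate number as a block, 87 miRNAs were called, 34 of them higher, and all 10 arms were lower. With the numbers crossed, a pairing chosen after seeing the data, 55 were called, 8 of them cluster arms. The numbers mark no known pairing. The replicate block gave 2 calls for the odds of a perfect match, where the fit without it gave 0, and it gave 0 calls for arm ratios.

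Arm ratios had 1 call with perfect matches only. The odds of a perfect match had 1 call with a pseudocount of 5 and 0 to 1 with 1 library left out. With 1 library left out, the odds difference ran from -0.17 to 0.15 for miR-322, from -0.23 to 0.053 for miR-351 and from -0.30 to 0.35 for miR-542-3p, and it changed sign for miR-322 without WT replicate 2 (0.054) and TghuTNF replicate 2, for miR-351 without TghuTNF replicate 2 and for miR-542-3p without WT replicate 2 (-0.098) and TghuTNF replicate 1. Ratios to miR-351 had 23 to 415 calls with 1 library left out. The log2 fold change of miR-15a ran from -0.28 to 0.052 with 1 library left out, above 0 without WT replicate 2 (0.031) and without TghuTNF replicate 1. That of miR-125a-5p was 0.072 with perfect and 1-mismatch matches and ran from -0.53 to 0.051 with 1 library left out, above 0 without TghuTNF replicate 2. The cause of these moves was not tested. Upper quartile factors put the median log2 fold change of all miRNAs at -0.10, with the arms' median then at -1.88. A fit that leaves out a library assumes that the single library left varies like the other genotype. Depth limits the rarest arms, miR-450b-5p above all, whose TghuTNF libraries held 11 and 7 matches.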
